A study of Mus musculus with 9 samples.

Results

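The genes described here carry symbols used for subunits of the mitochondrial respiratory chain and its ATP synthase. They were followed in the mouse sublingual gland, a mucous salivary gland under the tongue, before and after irradiation. They were chosen by symbol among protein-coding genes: names starting with Ndufa, Ndufb, Ndufc, Ndufs or Ndufv, the genes Sdha to Sdhd, names starting with Uqcr, Cox4 to Cox8 or Atp5, Cyc1, and the mitochondrially encoded genes, without the assembly factors named Ndufaf and Sdhaf. The rule found 100 genes among 54532 in the count tables, 87 in the nuclear genome and 13 in the mitochondrial genome. Complexes were assigned by symbol and not by where the protein is found, so every Nduf gene, Ndufa4 included, was counted in complex I. Likewise Cox7a2l was counted in complex IV and Atp5s in complex V by symbol alone, whether or not the protein is a structural subunit. The nuclear genes comprised 38 of complex I, 4 of complex II, 9 of complex III, 18 of complex IV and 18 of complex V. The mitochondrial genes comprised 7 of complex I, 1 of complex III, 3 of complex IV and 2 of complex V.

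Bulk RNA-seq was done on 9 libraries in 3 groups of 3, all labelled wild type: glands that received no radiation, glands at day 7 after 10 Gy and glands at day 14 after 10 Gy. RNA came from 4 sections of 50 µm per sample. The labels used here give no age, sex or irradiated field. They also do not say whether the 3 samples of a group are different animals, so the spread behind each p-value may be only technical. All 3 comparisons share libraries: both irradiated groups were set against the same controls, and day 14 against the same day 7 libraries. In bulk tissue, fewer cells of a type and less RNA per cell cannot be told apart.

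The respiratory chain sits in the inner mitochondrial membrane. Complex I takes electrons from NADH and complex II takes them from succinate. Both pass them to ubiquinone, complex III passes them on to cytochrome c, and complex IV hands them to oxygen. Complexes I, III and IV pump protons, and complex V lets the protons flow back to make ATP. Complex II is encoded wholly in the nucleus, and the other complexes join nuclear subunits with subunits made inside the organelle. Mitochondrial genes are transcribed as long precursors from both strands of one circular genome and then cut into single RNAs, whereas each nuclear gene has its own promoter. In salivary glands, striated duct cells are known to be rich in mitochondria, and acinar cells spend ATP on secretion.

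Library totals ran from 15962399 to 19441239 counts. Levels are given as CPM, a gene's counts per 1000000 counts of its library after the library's size was scaled by the trimmed mean of M-values (TMM). On unscaled totals, 3 counts equal 0.154 to 0.188 CPM, depending on the library. After a filter on low counts, 15348 genes were tested, among them 83 of the 87 nuclear genes and all 13 mitochondrial genes. Cox6a2, Cox7b2, Cox8c and a second gene model named Atp5o did not pass the filter. Control replicate 3 stood apart from the other controls: the chi-square of counts per degree of freedom was 137.595 and 96.174 against controls 1 and 2, compared with 15.865 between those and at most 31.316 within either irradiated group. Markers of mucous acinar cells summed to between 201396 and 269677 CPM in controls, led by Dcpp2, and Bpifb2 of that list reached at most 0.904 CPM. Changes are log2 fold changes with their standard error (SE) from edgeR's quasi-likelihood test, and a call is a Benjamini-Hochberg adjusted p under 0.05 over all tested genes.

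At day 7 the nuclear respiratory chain genes were lower as a group. Of the 83 tested, 70 fell and 0 rose, and their median log2 change was -0.63 against 0.02 over all tested genes. Over all genes 30.6% were called in this comparison, 14.8% lower and 15.8% higher. At an unadjusted p under 0.05 in edgeR, 74 were lower and 1 was higher, beside 19.6% and 21.5% of all genes, and DESeq2 called 72 lower and 0 higher, beside 16.4% and 16% of all genes. In 72 of the 83 the 3 day 7 libraries all lay below the 3 controls, and in 2 all lay above; over all genes these shares were 21.7% and 22.2%. By complex, the genes that fell were 35 of 38 in complex I, 3 of 4 in complex II, 7 of 9 in complex III, 11 of 15 in complex IV and 14 of 17 in complex V. Median changes by complex lay between -0.67 for complex IV and -0.45 for complex II, and whether the complexes differed from one another was not tested. Without control replicate 3, 73 nuclear genes fell, beside 16.4% of all genes.

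The length of a gene moved with its change in these libraries, and most respiratory chain genes are short. Across 15332 tested genes the Spearman correlation of the day 7 change with exonic length was 0.42, given as a description only, since genes are no replicates. The median exonic length was 1587 bases for the nuclear set and 4111 bases for all tested genes. Within the shortest of 10 equal groups of genes, 54 to 1389 bases, the median change was -0.38 over all genes and -0.70 over the 36 nuclear respiratory chain genes there. In the next group, 1390 to 2128 bases, it was -0.33 over all genes and -0.58 over 19 nuclear respiratory chain genes. In the fourth group, 2745 to 3399 bases, the medians were -0.15 and -0.52, the latter over 7 genes. When each library was corrected for exonic length and GC content, 23 nuclear genes fell and 1, Uqcrfs1, rose, with a median of -0.17; 8.42% of all genes were then called lower. When the length and GC of the principal transcript were used instead, a setting chosen after seeing the data, 13 fell and 1, Atp5g2, rose, with a median of -0.10 and 7.21% of all genes called lower. The correction was fitted over all genes, the respiratory chain genes included. Fits without it are given below unless stated. Where 2 corrected values follow, the first is from the exonic and the second from the principal-transcript correction.

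**Figure D1:**
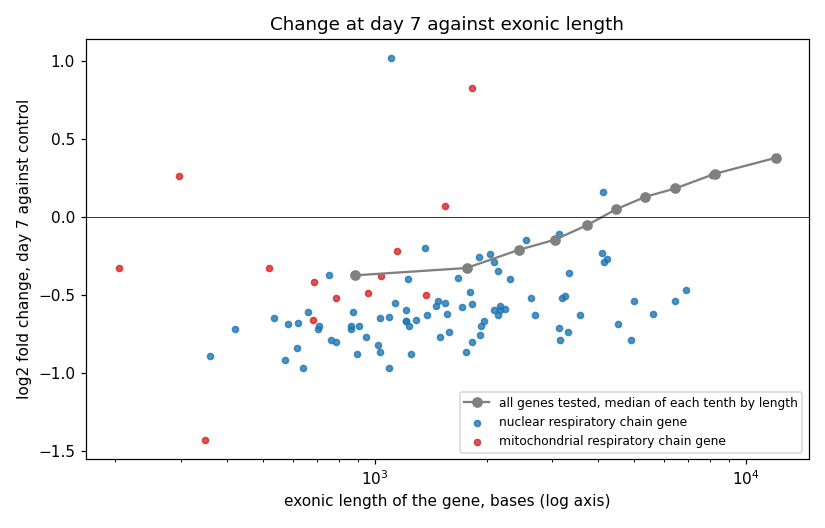
Each point is a tested respiratory chain gene (83 nuclear, 13 mitochondrial), with exonic length in bases on a log axis and the log2 fold change at day 7 against control; the grey line joins the medians of all tested genes in 10 equal groups by length. The grey medians run from -0.38 in the shortest group to 0.38 in the longest, and most nuclear genes lie below the line.

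**Figure D2:**
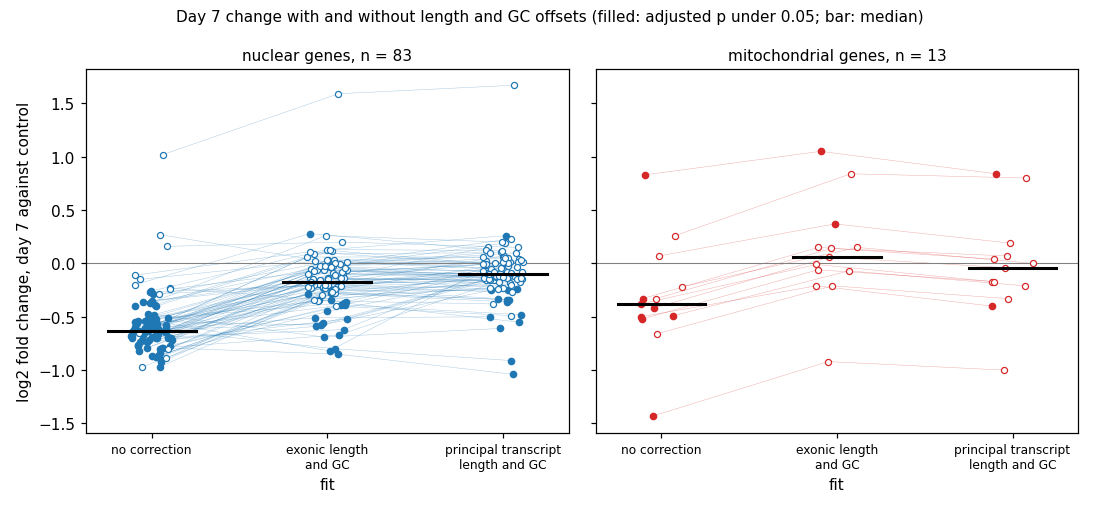
Day 7 log2 fold change of each nuclear (left) and mitochondrial (right) gene with no correction, with exonic length and GC offsets and with principal transcript length and GC offsets; filled points are called at an adjusted p under 0.05 and bars are medians. The nuclear median moves from -0.63 to -0.17 and -0.10, and mt-Nd5 is the highest called point in all 3 fits.

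Of the called nuclear genes, 10 fell in the uncorrected fit and in both corrected fits: Atp5d, Atp5g1, Atp5j2, Ndufa13, Ndufa5, Ndufab1, Ndufb2, Ndufc1, Ndufs4 and Sdhc. They come from complexes I, II and V. The share of all genes called lower in all 3 fits was not counted. Atp5g1, Ndufb2, Ndufab1 and Sdhc have long annotated principal transcripts, of 4715, 4371, 3479 and 3171 bases. With the principal-transcript correction their values were -1.04, -0.91, -0.61 and -0.55, below the uncorrected -0.79, -0.62, -0.47 and -0.51. Whether those lengths match the transcripts present in the gland was not tested. Among nuclear genes with a principal transcript under 1000 bases, 44 of 49 fell, with a median of -0.69. Among those of 1000 bases or more, 26 of 34 fell, with a median of -0.51. Shares of all genes by principal transcript length were not computed. In the shortest of the 10 groups by exonic length, 30 of 36 nuclear genes fell, beside 24.6% of all genes there. In the next group 17 of 19 fell, beside 30.6%. In the longest group 1.43% of all genes were called lower.

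**Figure D3:**
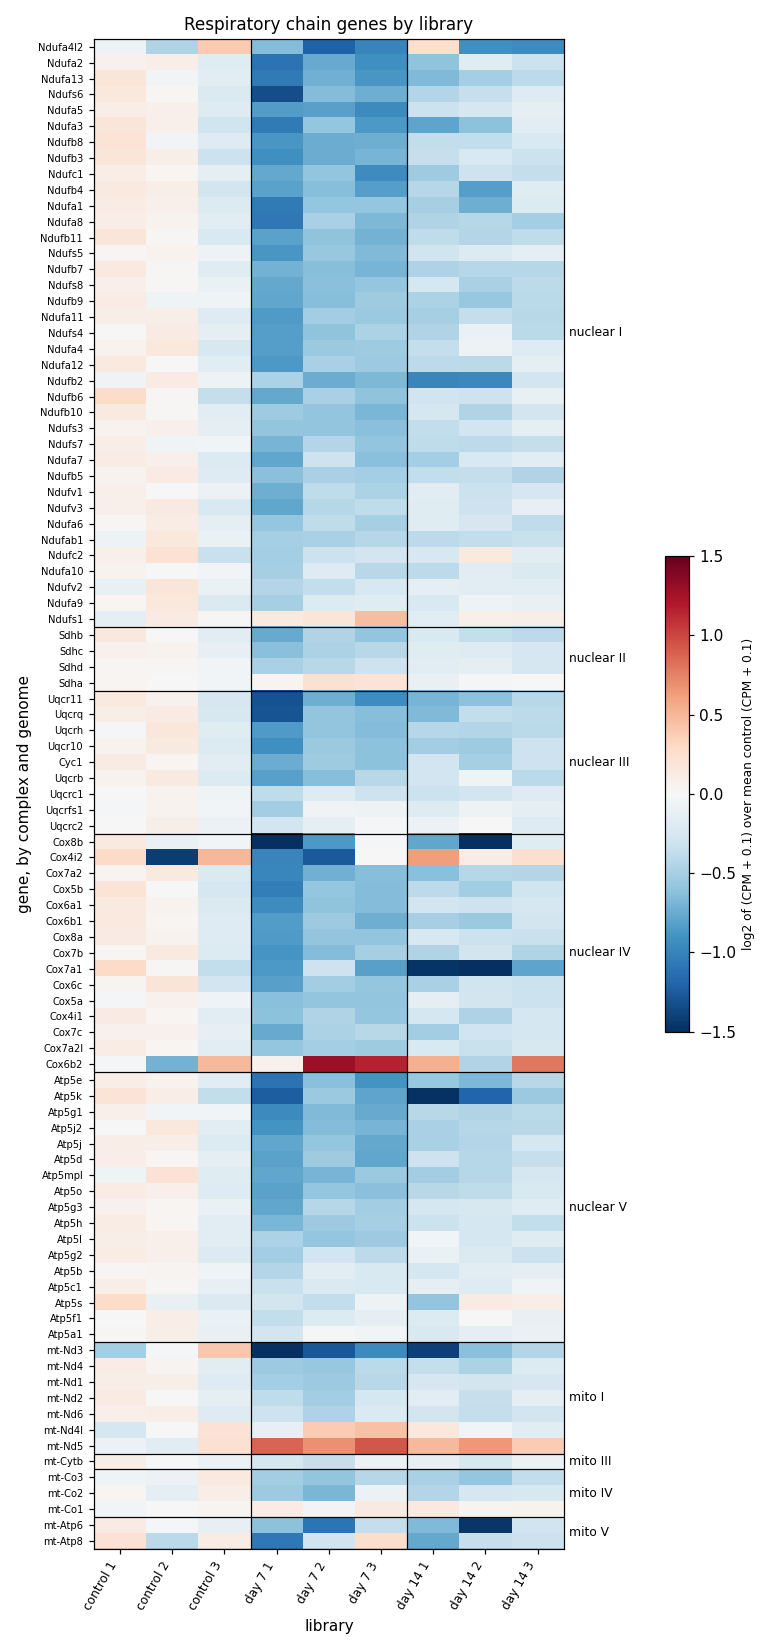
Heat map of 95 of the tested genes (rows, by complex and genome, sorted by day 7 change) in the 9 libraries (columns); colour is the log2 of (CPM + 0.1) over the mean control (CPM + 0.1), blue lower and red higher. Most nuclear rows are blue in the 3 day 7 columns and paler in the day 14 columns, while mt-Nd5 is red in all 6 irradiated libraries.

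In complex I, the supernumerary subunits, which surround the catalytic core, gave the smallest p-values. Ndufa13, an accessory subunit, read 101, 86.2 and 79.2 CPM in controls, 42.4, 53.9 and 48.4 CPM at day 7, and 56.1, 62.2 and 67.6 CPM at day 14. Every irradiated library lay below every control. The day 7 change of Ndufa13 was -0.88 (SE 0.116, edgeR adjusted p = 4.19e-05), and it was -0.28 and -0.36 in the exonic and principal-transcript corrected fits. Ndufa5, a subunit of the hydrophilic arm, read 47.1, 46.4 and 38.3 CPM in controls, 24.5, 25 and 22.7 CPM at day 7, and 35, 37 and 39.6 CPM at day 14. At day 7 no library overlapped the controls, and at day 14 one of them overlapped. Its day 7 change was -0.87 (SE 0.114, edgeR adjusted p = 4.11e-05), with corrected values of -0.28 and -0.34. Ndufa2, another accessory subunit of the hydrophilic arm, changed by -0.92 (SE 0.126, edgeR adjusted p = 5.13e-05), with corrected values of -0.22 and -0.27 that were not called.

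Ndufb8, a membrane-arm subunit, read 83.6, 70.9 and 63.5 CPM in controls and 39.5, 43.2 and 43.7 CPM at day 7. The groups did not overlap, and the change was -0.79 (SE 0.110, edgeR adjusted p = 6.3e-05). For Ndufb8 the corrections gave different answers, -0.67 by exonic length and -0.12 by principal transcript, the second not called. The core subunits include those that carry the flavin and the iron-sulfur clusters. Of the core, Ndufs8, Ndufs3, Ndufs7 and Ndufv2 were called lower at day 7, at -0.66, -0.60, -0.58 and -0.35. None of these was called after either correction. Whether core and supernumerary subunits differed was not tested. Ndufv1, which binds NADH, read 114, 109 and 102 CPM in controls and 65.1, 83.5 and 77.8 CPM at day 7, a change of -0.52 (SE 0.101, edgeR adjusted p = 0.000841). The groups of libraries were separate for Ndufv1, and its corrected values of -0.22 and -0.17 were not called. Ndufs1, the largest core subunit, read 47.1, 56.7 and 52.9 CPM in controls and 57.4, 59.4 and 71.8 CPM at day 7. Its day 7 libraries all lay above the controls, but the change of 0.27 (SE 0.114, edgeR adjusted p = 0.0824) was not called, nor were the corrected values of 0.00 and 0.23. Ndufs1 also has the greatest exonic length of the nuclear set, 8086 bases, and shares its locus with other genes on the opposite strand.

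Complex II, succinate dehydrogenase, also works in the citric acid cycle. Sdha, the flavoprotein that oxidises succinate, read 176, 174 and 168 CPM in controls, 178, 202 and 199 CPM at day 7, and 160, 170 and 173 CPM at day 14. The day 7 libraries lay above the controls by a small margin, and the change of 0.16 (SE 0.085, edgeR adjusted p = 0.159) was not called, nor were the corrected values of 0.20 and 0.15. The other subunits fell in the uncorrected fit. Sdhb, the iron-sulfur subunit, read 152, 137 and 121 CPM in controls and 80.8, 100 and 90.4 CPM at day 7, a change of -0.59 (SE 0.103, edgeR adjusted p = 0.000375), with corrected values of -0.23 and -0.09, not called. Sdhc, a membrane anchor, read 136, 135 and 119 CPM in controls, 84.2, 93.3 and 97.2 CPM at day 7, and 115, 114 and 109 CPM at day 14. Sdhd, the other anchor, read 90.7, 90.1 and 86.3 CPM in controls and 63.7, 66.8 and 71.6 CPM at day 7. No day 7 library of Sdhb, Sdhc or Sdhd reached a control. Sdhc changed by -0.51 (SE 0.091, edgeR adjusted p = 0.000471), and the corrected values were -0.37 and -0.55, both called. Sdhd changed by -0.40 (SE 0.090, edgeR adjusted p = 0.00254), but its value was 0.12 with the exonic correction and -0.02 with the principal-transcript correction, neither called.

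Complex III carries electrons from ubiquinol to cytochrome c. Uqcr11, a small subunit at the edge of the complex, read 110, 104 and 83.6 CPM in controls, 40.1, 59.8 and 51.8 CPM at day 7, and 60.9, 64.6 and 74.6 CPM at day 14. All 6 irradiated libraries were below all controls. Its day 7 change was -0.97 (SE 0.138, edgeR adjusted p = 0.000102), and -0.24 and -0.20 after correction, neither called. Uqcrh, the hinge protein, read 195, 221 and 174 CPM in controls and 109, 130 and 125 CPM at day 7, a change of -0.70 (SE 0.098, edgeR adjusted p = 6.55e-05), with corrected values of -0.22 and -0.07, not called. Cyc1, the cytochrome c1 that hands on the electrons, read 172, 161 and 140 CPM in controls and 93.8, 109 and 103 CPM at day 7. The groups were separate for both genes. Cyc1 changed by -0.63 (SE 0.099, edgeR adjusted p = 0.000165), with corrected values of -0.21, not called, and -0.24, called. Uqcrb, a quinone-binding subunit, fell by 0.61 on the log2 scale, with corrected values of -0.16 and -0.12, not called. Uqcr10, a small subunit, fell by 0.69 on that scale, but the corrected values for Uqcr10 were 0.03 and 0.06. Uqcrfs1, the Rieske iron-sulfur protein, read 118, 124 and 116 CPM in controls and 83.3, 115 and 113 CPM at day 7. One day 7 library stood well below the other two, and the change of -0.20 (SE 0.108, edgeR adjusted p = 0.172) was not called; with the exonic correction the value was 0.28 (edgeR adjusted p = 0.0424), and with the principal-transcript correction 0.13, not called.

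Complex IV, cytochrome c oxidase, has a mitochondrially made core and small nuclear subunits. Cox6a1, the common form of a subunit that tunes the enzyme, read 328, 308 and 256 CPM in controls, 155, 195 and 189 CPM at day 7, and 244, 239 and 250 CPM at day 14. Both irradiated groups were below the controls, day 7 the further. The day 7 change of Cox6a1 was -0.72 (SE 0.104, edgeR adjusted p = 7.77e-05), yet its corrected value was 0.01 in both fits. Cox8a, the nuclear gene with the highest level per length in controls (512 ± 57.4 CPM per kilobase of exonic length, SD, n = 3), read 344, 330 and 277 CPM in controls and 176, 210 and 210 CPM at day 7. Its groups were separate, with a change of -0.68 (SE 0.10, edgeR adjusted p = 9.16e-05) and a corrected value of 0.06 in both fits. Cox7a2, the common form of a subunit tied to supercomplexes, changed by -0.77 (SE 0.112, edgeR adjusted p = 7.82e-05), with a value of -0.15 in both corrected fits. Cox6b1, at the contact between the monomers of the dimer, changed by -0.70 (SE 0.108, edgeR adjusted p = 0.000129), with corrected values of -0.03 and -0.08, not called. Cox4i1, the largest nuclear subunit, read 375, 352 and 310 CPM in controls and 225, 252 and 232 CPM at day 7, a change of -0.55 (SE 0.096, edgeR adjusted p = 0.000368), with corrected values of -0.02 and 0.11, not called. Cox5a, which binds a thyroid hormone metabolite, read 62.2, 66.2 and 61.1 CPM in controls and 41, 42 and 41.9 CPM at day 7. Neither gene's day 7 libraries overlapped the controls. Cox5a changed by -0.60 (SE 0.098, edgeR adjusted p = 0.000208); it stayed called with the exonic correction at -0.39 and not with the principal-transcript correction at -0.03.

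Complex V is the ATP synthase, a rotary enzyme with a catalytic head and a proton-driven ring. The ring protein is encoded by 3 genes, Atp5g1, Atp5g2 and Atp5g3, that differ in their import sequences and give the same mature protein. Atp5g1 read 133, 123 and 123 CPM in controls, 65.1, 79.9 and 74.9 CPM at day 7, and 94.3, 92.3 and 95.4 CPM at day 14. The 3 groups were fully separate, with day 14 in between. At day 7 Atp5g1 changed by -0.79 (SE 0.094, edgeR adjusted p = 2.23e-05), the smallest p-value of the nuclear set, and the corrected changes were -0.85 and -1.04. Atp5g2 read 122, 119 and 97.9 CPM in controls and 78.9, 92.5 and 86.3 CPM at day 7, a separation of a few CPM. Its change was -0.39 (SE 0.103, edgeR adjusted p = 0.00731), but the corrected values were 0.13 and 0.26, the latter called higher (edgeR adjusted p = 0.0246), and 87.4% of the 50-base windows of Atp5g2 also occur in another gene. Atp5g3 read 201, 197 and 180 CPM in controls and 112, 143 and 134 CPM at day 7, a change of -0.57 (SE 0.095, edgeR adjusted p = 0.00025), with corrected values of -0.25, called, and 0.00, not called. A test of the difference between the 3 genes was not made.

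Among subunits of the catalytic head and the stalk, Atp5b, the catalytic beta subunit, read 986, 990 and 920 CPM in controls and 712, 867 and 823 CPM at day 7. Every day 7 library was lower, and the change was -0.27 (SE 0.092, edgeR adjusted p = 0.0317), with corrected values of -0.20 and -0.04, not called. Atp5a1, the alpha subunit, read 668, 706 and 611 CPM in controls and 546, 654 and 645 CPM at day 7. These ranges overlapped, and the change of -0.11 (SE 0.094, edgeR adjusted p = 0.424) was not called, nor were the corrected values of 0.11 and -0.01. Atp5e, a small subunit of the central stalk, read 176, 170 and 146 CPM in controls and 75.9, 106 and 87.8 CPM at day 7, a change of -0.87 (SE 0.115, edgeR adjusted p = 4.61e-05), with corrected values of -0.45, called, and -0.13, not called. Atp5d, also of the stalk, changed by -0.70 (SE 0.096, edgeR adjusted p = 5.24e-05), and Atp5j2, of the membrane part, by -0.74 (SE 0.099, edgeR adjusted p = 4.32e-05). Atp5d kept a value of -0.25 in both corrected fits, and Atp5j2 had -0.59 and -0.25, all called.

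Atp5l, a subunit that helps the enzyme form dimers, shows how far the definition of length matters. Its exonic length is 6443 bases against 544 for the principal transcript. Of the 50-base windows of Atp5l, 68.5% also occur in another gene, so its counts are uncertain in every fit. The uncorrected day 7 change of Atp5l was -0.54, the exonic correction gave -0.82 and the principal-transcript correction gave 0.05. The 13 nuclear genes that were not called at day 7 were Ndufa4l2, Ndufa9, Ndufs1, Sdha, Uqcrc2, Uqcrfs1, Cox4i2, Cox6b2, Cox7a1, Cox8b, Atp5a1, Atp5f1 and Atp5s.

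**Figure D4:**
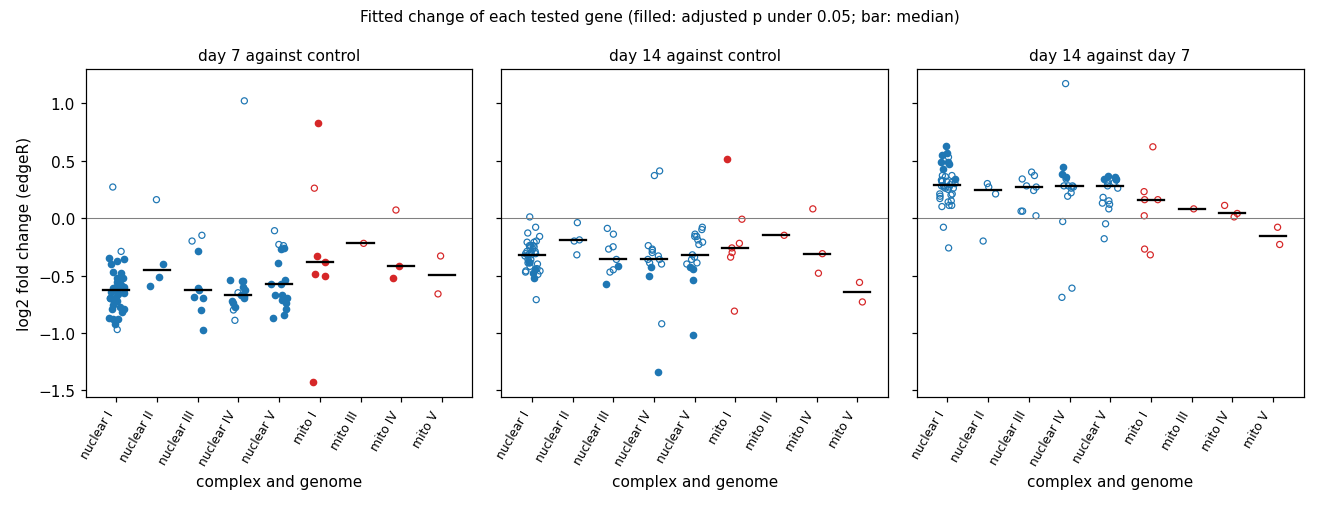
Fitted log2 fold change of each tested gene by complex and genome (blue nuclear, red mitochondrial) in the 3 comparisons; filled points are called at an adjusted p under 0.05 and bars are medians. Nuclear medians lie below 0 for all 5 complexes at day 7 and day 14 against control and above 0 for day 14 against day 7, and mt-Nd5 is the red point called higher in the first and second panels.

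The 13 mitochondrial genes differed widely in how they were counted. mt-Nd1, mt-Nd2, mt-Nd4, mt-Nd5, mt-Nd6, mt-Cytb and mt-Co1 lay between 636 and 9223 CPM in every library. mt-Nd3, mt-Nd4l, mt-Co2, mt-Co3, mt-Atp6 and mt-Atp8 lay between 0.217 and 42.5 CPM. A block of pseudogenes on nuclear chromosome 1, within chr1:24611535-24616197 of the mm10 build, copies part of the mitochondrial genome. It matches 98.3% to 99.9% of the length of mt-Nd3, mt-Nd4l, mt-Co2, mt-Co3 and mt-Atp6 with no mismatch. The largest copy of mt-Nd4 there matches 63.6% of it with no mismatch, and that of mt-Co1 matches 31.3% with 1 mismatch. Over all annotated genes, 62.2% of the 50-base windows of mt-Nd4 and 51.1% of those of mt-Co1 occurred elsewhere. Reads from such stretches fit both places, so the counts of these genes are uncertain, and the handling of multiply mapped reads is not stated. Counts of the copy Gm28437 were 372, 366 and 454 in controls, beside 276, 245 and 344 for mt-Co3 itself. mt-Atp8 was as low, and none of its 50-base windows occurred in another annotated gene. Only annotated transcripts were searched, so a copy of mt-Atp8 in unannotated sequence could not be seen. mt-Atp8 starts between mt-Co2 and mt-Atp6, whose copies in the block leave a gap from 24614651 to 24614885.

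Stretches of 60 bases from mt-Co3, subunit 3 of complex IV, and from mt-Nd5, a proton-pumping subunit of complex I, show the difference. They are read from the GENCODE M21 transcripts of the GRCm38 build, on the plus strand, chrM:8999-9058 for mt-Co3 and chrM:12642-12701 for mt-Nd5. Capitals mark bases that differ between a gene and its nuclear copy. The mt-Co3 stretch is identical in Gm28437, and the mt-Nd5 stretch differs at 9 bases from the pseudogene Gm4076.
mt-Co3: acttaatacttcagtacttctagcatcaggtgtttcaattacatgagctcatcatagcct
Gm28437: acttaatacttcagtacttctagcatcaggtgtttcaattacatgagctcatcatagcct
mt-Nd5: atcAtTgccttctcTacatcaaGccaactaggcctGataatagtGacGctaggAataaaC
Gm4076: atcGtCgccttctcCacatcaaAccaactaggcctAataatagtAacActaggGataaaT
Over 953 aligned bases mt-Nd5 and Gm4076 were 95.28% identical, 7.61% of the 50-base windows of mt-Nd5 occurred elsewhere and no 100-base window did, and Gm4076 had 0 counts in all 9 libraries. mt-Nd1, mt-Nd6 and mt-Cytb had no 50-base window shared with another annotated gene.

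mt-Nd5 rose at both times. It read 1133, 1076 and 1417 CPM in controls, 2219, 1939 and 2300 CPM at day 7, and 1697, 1892 and 1578 CPM at day 14. The 3 groups did not overlap, with day 7 the highest and day 14 in between. At day 7 mt-Nd5 changed by 0.83 (SE 0.110, edgeR adjusted p = 4.29e-05), a 1.78-fold rise, and by 1.05 and 0.84 in the corrected fits. It was the 1 mitochondrial gene called higher at day 7 without correction, and it stayed called in every alternative fit of that comparison, with changes between 0.74 and 1.24. The gene lies at chrM:11742-13565 on the plus strand and overlaps the end of mt-Nd6, which is on the other strand. No source used here says whether counting used strand, so reads of mt-Nd5 and reads from the opposite strand of that region cannot be told apart.

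The other well-counted subunits of complex I were lower at day 7. mt-Nd1, which forms part of the quinone chamber, read 3485, 3494 and 2866 CPM in controls and 2314, 2256 and 2464 CPM at day 7. mt-Nd2, a pumping subunit, read 2625, 2409 and 2191 CPM in controls and 1853, 1678 and 2005 CPM at day 7. mt-Nd4, another pumping subunit, read 3687, 3505 and 3037 CPM in controls and 2339, 2295 and 2580 CPM at day 7. All day 7 values of these genes lay below the controls. mt-Nd6, the gene on the opposite strand, read 921, 936 and 765 CPM in controls and 703, 636 and 751 CPM at day 7, also without overlap. The changes were -0.49 (SE 0.094, edgeR adjusted p = 0.000851) for mt-Nd1, -0.38 (SE 0.099, edgeR adjusted p = 0.00646) for mt-Nd2, -0.50 (SE 0.10, edgeR adjusted p = 0.00103) for mt-Nd4 and -0.33 (SE 0.096, edgeR adjusted p = 0.0149) for mt-Nd6. With the exonic correction none of the mitochondrial genes was called lower, and with the principal-transcript correction only mt-Nd4 was, at -0.40 (edgeR adjusted p = 0.0348). The corrected values were -0.07 and -0.21 for mt-Nd1, -0.01 and -0.17 for mt-Nd2, and 0.15 and 0.04 for mt-Nd6.

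mt-Cytb, the mitochondrial subunit of complex III, read 6018, 5652 and 5351 CPM in controls and 4745, 4465 and 5356 CPM at day 7, and mt-Co1, the catalytic subunit of complex IV, read 8134, 8350 and 8647 CPM and then 9031, 8174 and 9199 CPM. The ranges overlapped for both, and neither change, -0.22 (SE 0.094) and 0.07 (SE 0.087), was called. mt-Co1 was called higher with the exonic correction at 0.37 (edgeR adjusted p = 0.00357) and not with the principal-transcript correction at 0.19. The low-count genes mt-Nd3, mt-Co2 and mt-Co3 were called lower at day 7 with changes of -1.43, -0.42 and -0.52, none of them called after correction, and mt-Nd4l, mt-Atp6 and mt-Atp8 were not called. In all, 7 mitochondrial genes fell and 1 rose.

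**Figure D5:**
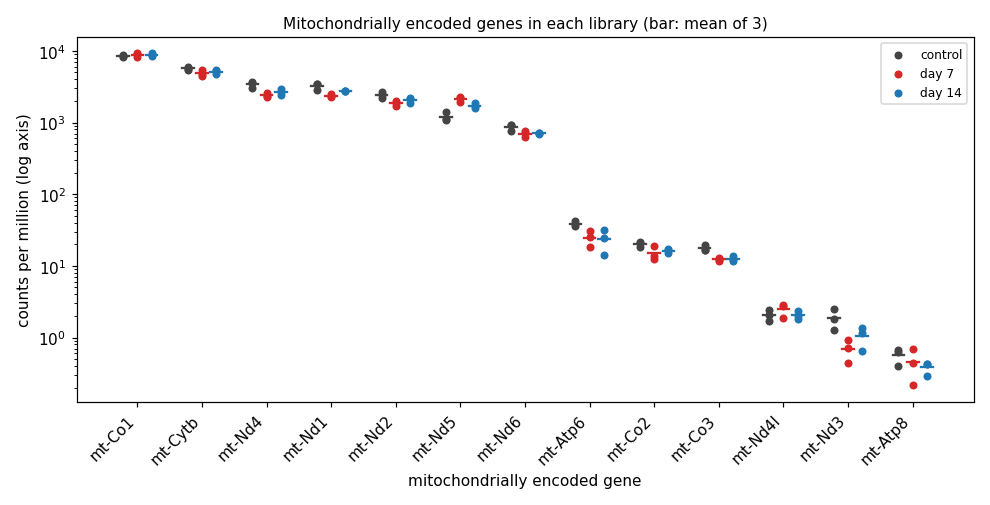
CPM of the 13 mitochondrial genes on a log axis, ordered by mean control level, with 3 libraries per group as points and their mean as a bar. The first 7 genes lie at 636 CPM or more and the rest at 42.5 CPM or less, and mt-Nd5 is the gene of the upper 7 whose day 7 and day 14 points both lie above its controls.

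Within the mitochondrial genome the mix of counts changed, a measure that does not depend on library scaling. mt-Nd5 made up 4.79 ± 0.889% of the counts of the 13 genes in controls (SD, n = 3), 9.29 ± 0.259% at day 7 and 7.21 ± 0.879% at day 14. No irradiated library overlapped a control in this share. mt-Nd1 went from 12.9 ± 1.03% to 10.1 ± 0.314% and 11.5 ± 0.282%, and mt-Nd4 from 13.4 ± 0.87% to 10.4 ± 0.313% and 11.2 ± 0.813%. mt-Co1 went from 33.1 ± 2.19% to 38 ± 0.81% and 36.9 ± 0.95%. The shares of mt-Nd1 and mt-Nd4 were lower in all day 7 libraries than in all controls, and that of mt-Co1 was higher. The counts of mt-Nd4 and mt-Co1 carry the limit of shared stretches given above. A share that moves shows unequal change between genes and not which of them changed.

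The summed counts of the genomes were also set against each other. Of all counts, the nuclear genes took 0.91 ± 0.0723% in controls, 0.743 ± 0.0532% at day 7 and 0.81 ± 0.034% at day 14 (SD, n = 3). The mitochondrial genes took 2.35 ± 0.0696%, 2.47 ± 0.18% and 2.42 ± 0.155%. The log2 ratio of summed mitochondrial to summed nuclear counts was 1.34, 1.31 and 1.46 in controls, 1.89, 1.53 and 1.78 at day 7, and 1.64, 1.53 and 1.56 at day 14. Both irradiated groups lay above the controls and overlapped each other. The differences were 0.37 at day 7 and 0.21 at day 14 against control, each with an exact two-sided permutation p of 0.10, the smallest that 3 against 3 allows, and -0.16 for day 14 against day 7 (exact permutation p = 0.30); adjusted over the 3 comparisons these are 0.15, 0.15 and 0.30. With 3 against 3 this p cannot fall under 0.05, so the test cannot decide whether the ratio changed. The genes summed were also chosen with results known. The ratio was not corrected for gene length. The mitochondrial rRNA genes, which are no subunits, took 0.0457 ± 0.000249% in controls, 0.0286 ± 0.00368% at day 7 and 0.0496 ± 0.00318% at day 14.

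At day 14 fewer genes differed from control. Of the 83 nuclear genes, 13 fell and 0 rose, with a median log2 change of -0.32 against 0.01 over all genes, where 0.632% were called lower and 1.13% higher. At an unadjusted p under 0.05 in edgeR, 61 were lower and 0 higher, beside 8.9% and 12.4% of all genes, and DESeq2 called 42 lower and 0 higher with 3.65% of all genes lower. The 13 were Ndufa13, Ndufb7, Ndufb9, Ndufs7, Uqcr11, Uqcrh, Cox6b1, Cox7a1, Cox7a2, Atp5e, Atp5g1, Atp5j2 and Atp5k. Of these, 12 had also fallen at day 7, a comparison with the same controls. The count rests on single libraries: without control replicate 3 it was 59, with 5.31% of all genes called lower and 6.99% higher, and it was 0 without control replicate 1 or 2 or day 14 replicate 1 or 2, 3 without day 14 replicate 3 and 8 without day 7 replicate 2. With the exonic correction 6 were called lower, and with the principal-transcript correction 3, Ndufab1, Ndufb2 and Atp5g1, beside 0.313% and 0.182% of all genes.

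The day 14 change of Atp5g1 was -0.43 (SE 0.093, edgeR adjusted p = 0.0323), and -0.47 and -0.59 in the corrected fits. Ndufb9, a membrane-arm subunit of complex I, read 66.7, 58.8 and 59 CPM in controls and 44.1, 41.5 and 46.4 CPM at day 14, without overlap. Its change was -0.48 (SE 0.105, edgeR adjusted p = 0.0328), with corrected values of -0.14 and -0.13. Complex II had no call at day 14: Sdha, Sdhb, Sdhc and Sdhd had changes of -0.04, -0.32, -0.20 and -0.19. mt-Nd5 was the 1 mitochondrial gene called, at 0.51 (SE 0.110, edgeR adjusted p = 0.0319), or 1.42-fold, with corrected values of 0.50 and 0.37, both called. Leaving out control replicate 1 or 2 or any day 14 replicate ended this call of mt-Nd5, with changes that stayed above 0. No mitochondrial gene was called lower by edgeR, where 6 were lower at an unadjusted p under 0.05, and DESeq2 called 4.

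Between day 7 and day 14, 15 nuclear genes were higher at day 14 and 0 were lower, with a median of 0.28 against 0.00 over all genes; 6.59% of all genes were called, 3.72% higher and 2.87% lower. At an unadjusted p under 0.05 in edgeR, 48 were higher and 3 lower, beside 12.5% and 10.1% of all genes, and DESeq2 called 17 higher and 0 lower, beside 5.21% and 4.25% of all genes. All 15 had fallen at day 7, and the same day 7 libraries enter both comparisons. Ndufa5 showed the smallest p-value, at 0.63 (SE 0.114, edgeR adjusted p = 0.00313), and kept 0.34 and 0.37 after correction, both called. Ndufa2 differed by 0.57 (SE 0.125, edgeR adjusted p = 0.0118), Ndufs5, a small accessory subunit, by 0.49 (SE 0.108, edgeR adjusted p = 0.0118), and Cox6a1 by 0.44 (SE 0.104, edgeR adjusted p = 0.0162); none of these was called after correction. For Atp5g1 the difference was 0.36 (SE 0.094, edgeR adjusted p = 0.028), and 0.38 and 0.45 after correction, both called. The count of 15 fell to 1 without day 7 replicate 1, lay between 4 and 9 when day 7 replicate 2 or 3, control replicate 2 or any day 14 replicate was left out, and was 23 without control replicate 3, where 4.69% of all genes were higher and 4.29% lower. With the exonic correction 4 were called higher and 1, Cox7a1, lower, and with the principal-transcript correction 3 were higher and Cox7a1 again lower. Over all genes, 2.68% were higher and 2.98% lower with the first correction, and 2.9% higher and 2.82% lower with the second. No mitochondrial gene was called in the uncorrected edgeR fit, where 1 was lower and 1 higher at an unadjusted p under 0.05 and DESeq2 called 1 lower; with either correction mt-Nd5 was lower at day 14 than at day 7, at -0.55 and -0.47. In 52 of the 83 the day 14 libraries all lay above the day 7 libraries and in 2 all lay below, beside 15.9% and 13.5% of all genes. In 78 of the 83 nuclear genes the day 14 change from control was nearer to 0 than the day 7 change, as it was in 69.6% of all genes; both changes share the controls.

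Several complex subunits have forms known from particular tissues. Cox7a1, the heart and muscle form of the Cox7a subunit, read 8.53, 7.07 and 5.37 CPM in controls, 3.8, 5.6 and 3.92 CPM at day 7, and 2.45, 1.8 and 4 CPM at day 14. At day 7 one library overlapped the controls, and at day 14 none did. The day 14 change of Cox7a1 was -1.34 (SE 0.298, edgeR adjusted p = 0.0335), and -0.93 in both corrected fits, not called. Ndufa4l2, a form induced by hypoxia, read 3.53, 2.7 and 4.92 CPM in controls and 2.33, 1.54 and 1.82 CPM at day 7, with a change of -0.97 (SE 0.370, edgeR adjusted p = 0.0532) that was not called. Cox4i2, a form tied to oxygen supply, Cox8b, a muscle form, and Cox6b2, a testis form, stayed at or under 1.65 CPM in all libraries and were not called in any comparison. Cox6b2 was the tested nuclear gene with the lowest level per length in controls, 0.557 ± 0.256 CPM per kilobase (SD, n = 3). Cox6a2, another muscle form, reached at most 0.282 CPM. Cox7b2 and Cox8c, forms known from testis, had 0 counts in all 9 libraries, which allows at most 3 counts each, or 0.154 to 0.188 CPM on unscaled totals, counting error only. Markers of skeletal muscle, 12 genes, summed to between 4.9 and 9.28 CPM over all libraries, and those of brown fat, 6 genes, to between 2.63 and 6.86 CPM, with the brown fat protein Ucp1 at or under 0.467 CPM.

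Among proteins that build the complexes, the assembly factors, 18 of 45 tested fell at day 7 and 0 rose, with a median of -0.33. Over all genes 14.8% were called lower and 15.8% higher. In the corrected fits 6 and 4 of the 45 were called lower, beside 8.42% and 7.21% of all genes, and 1 and 0 higher, beside 11.5% and 10.1%. Uqcc2, needed to make cytochrome b of complex III, read 31.2, 27.6 and 25.8 CPM in controls and 9.17, 15.2 and 13 CPM at day 7, without overlap. Uqcc2 changed by -1.18 (SE 0.168, edgeR adjusted p = 7.3e-05), and by -0.52 and -0.43 in the corrected fits, both called. Coa3, an assembly factor of complex IV, changed by -0.77 (SE 0.112, edgeR adjusted p = 8.63e-05), with corrected values of -0.12 and -0.20, not called. At day 14 none of the 45 was called against control, and 4, Uqcc3, Coa3, Cox16 and Uqcc2, were higher than at day 7, beside 3.72% of all genes.

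Genes for mitochondrial transcription and RNA handling moved little as a list: 4 of 30 fell and 0 rose at day 7, with a median of 0.04. Over all genes 14.8% were called lower and 15.8% higher. Lrpprc, which binds and stabilises mitochondrial mRNAs, read 108, 93.5 and 99.9 CPM in controls, 62, 66.5 and 81.3 CPM at day 7, and 55.3, 61.4 and 63.2 CPM at day 14. Every irradiated library lay below every control. Lrpprc changed by -0.53 (SE 0.108, edgeR adjusted p = 0.00138) at day 7 and -0.75 (SE 0.109, edgeR adjusted p = 0.0048) at day 14. After the exonic correction these were -0.78 and -0.90, and after the principal-transcript correction -0.74 and -0.88, all called. Tfam, which packs mitochondrial DNA and starts its transcription, had changes of -0.04 at day 7 and 0.00 at day 14, not called.

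Of 10 regulators known to act on respiratory genes, 2 rose and 1 fell at day 7, beside 15.8% and 14.8% of all genes. None was called at day 14. Gabpa, the DNA-binding part of nuclear respiratory factor 2, read 19.2, 22.2 and 32.7 CPM in controls and 44, 42.3 and 39.6 CPM at day 7, a change of 0.76 (SE 0.178, edgeR adjusted p = 0.00508) that stayed called at 0.57 and 0.42 after correction. Esrra, the estrogen-related receptor alpha, changed by -0.43 (SE 0.115, edgeR adjusted p = 0.00807), called with the exonic correction at -0.39 and not with the other at -0.17. Sp1, a general promoter-binding factor, changed by 0.44 (SE 0.119, edgeR adjusted p = 0.00919), which did not hold after correction at 0.13 and -0.01. Nrf1, nuclear respiratory factor 1, and Ppargc1a, a coactivator of mitochondrial biogenesis, were not called without correction at -0.17 and -0.31; Nrf1 was called lower with the exonic correction at -0.50, and Ppargc1a with both at -0.57 and -0.75.

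In the citric acid cycle, which feeds the chain, 4 of 17 fell and 1 rose at day 7, with a median of -0.11. Over all genes 14.8% were called lower and 15.8% higher. Mdh2, malate dehydrogenase, had a change of -0.39 (edgeR adjusted p = 0.00274), with corrected values of -0.26, called, and 0.01, not called, and Pdha1, of the pyruvate dehydrogenase that supplies the cycle, 0.35 (edgeR adjusted p = 0.0142), with corrected values of 0.37 and 0.30, both called. Of 22 genes for carriers, import and structure of mitochondria, 10 fell and 2 rose, with a median of -0.23, beside the same shares of all genes. Hspe1, a chaperonin of the matrix, changed by -0.80 (edgeR adjusted p = 4.11e-05), or -0.40 and -0.22 after correction, the first of these called. Cycs, cytochrome c itself, changed by -0.68 (edgeR adjusted p = 0.000625), and by -0.69 and -0.86 after correction, both called. At day 14 neither list had a call without correction.

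Markers of other cell types moved in the same libraries. Markers of striated and other ducts, 12 genes, summed to 5044 to 6680 CPM in controls, 3700 to 3925 CPM at day 7 and 3728 to 4346 CPM at day 14, with 4 lower and 2 higher at day 7. The other 6 were not called, and the median of the 12 was -0.28, or -0.10 and -0.19 after correction. Klk1, a kallikrein of duct cells and 1 of the 4 that were lower, changed by -1.08 at day 7 (edgeR adjusted p = 0.00192). Markers of mucous acinar cells summed to 193234 to 207079 CPM at day 7 and 206968 to 230527 CPM at day 14, with 6 of 8 lower and 1 higher at day 7. Ionocyte markers, 5 genes of a mitochondria-rich duct cell, summed to 43.4 to 64.4 CPM in controls, 41.3 to 49 CPM at day 7 and 29 to 47 CPM at day 14. Markers of dividing cells summed to 7.13 to 14.1 CPM in controls, 70.3 to 115 CPM at day 7 and 10.6 to 25.7 CPM at day 14. Macrophage markers summed to 196 to 226 CPM, 107 to 167 CPM and 263 to 337 CPM in that order. The sums are not corrected for length. Over all genes 14.8% were called lower and 15.8% higher at day 7 without correction. With the exonic and principal-transcript corrections 8.42% and 7.21% were lower, and 11.5% and 10.1% higher. At day 7, with the exonic and principal-transcript corrections, 2 and 3 acinar markers were lower and 0 higher. Of the duct markers 3 were lower in both, with 3 and 1 higher. Macrophage markers, 3 lower without correction, had 0 calls in either, and dividing markers had 6 and 5 higher. The part of these shifts in the changes of the respiratory chain genes was not tested.

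Promoters of 67 of the 87 nuclear genes were matched by symbol in RefSeq, as 250 bases before and 50 after the start, build GRCm38.p6. They were searched on both strands for the motif of NRF1, spelled GCGCA, any base, GCGC, a factor long tied to respiratory genes. It was present in 17 of 67 promoters, or 25.4%, compared with 7.45% of 16514 protein-coding genes and 10.9% of 10558 that were tested. The YY1 motif AANATGGCG was in 14.9% of the set against 5.64% of tested genes, and the ETS motif CCGGAAGT, read by Gabpa, in 7.46% against 8.76%. The motif TCAAGGTCA, read by Esrra, was in 2.99% against 0.332%, which is 2 genes, and the CREB motif TGACGTCA in 5.97% against 3.51%. Among the 60 matched genes that fell at day 7, 26.7% had the NRF1 motif. These are 60 of the same 67 genes, so this share could hardly differ from that of the whole set. A match is a run of letters, not evidence of binding.

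Promoters of 4 genes that fell at day 7 are shown for these motifs, as the stretch outside annotated exons, on the gene's strand, with the matches in capitals. Ndufb4, a membrane-arm subunit of complex I, and Cox6a1 hold NRF1 motifs, Uqcr11 an ETS motif, and Atp5g3 the Esrra motif, read on the opposite strand.
Ndufb4 promoter, chr16:37654454-37654618, minus strand: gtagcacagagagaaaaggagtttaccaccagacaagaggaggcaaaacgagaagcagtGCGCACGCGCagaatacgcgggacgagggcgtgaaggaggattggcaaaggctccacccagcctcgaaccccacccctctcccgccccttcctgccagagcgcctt
Cox6a1 promoter, chr5:115348982-115349129, minus strand: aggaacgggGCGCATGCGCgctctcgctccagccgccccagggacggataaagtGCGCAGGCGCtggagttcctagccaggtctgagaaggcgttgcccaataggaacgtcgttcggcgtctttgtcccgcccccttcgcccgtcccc
Uqcr11 promoter, chr10:80406831-80407071, minus strand: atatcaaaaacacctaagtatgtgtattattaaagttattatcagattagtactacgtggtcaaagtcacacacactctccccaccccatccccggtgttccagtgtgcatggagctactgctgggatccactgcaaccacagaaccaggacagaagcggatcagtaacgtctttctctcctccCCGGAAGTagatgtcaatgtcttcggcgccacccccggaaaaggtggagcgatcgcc
Atp5g3 promoter, chr2:73911327-73911576, minus strand: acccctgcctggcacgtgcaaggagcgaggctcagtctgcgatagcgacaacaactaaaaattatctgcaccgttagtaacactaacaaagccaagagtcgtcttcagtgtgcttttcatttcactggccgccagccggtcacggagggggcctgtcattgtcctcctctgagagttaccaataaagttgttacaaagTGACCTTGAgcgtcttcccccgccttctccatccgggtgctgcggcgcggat
The Cox6a1 stretch holds 2 NRF1 matches and the others 1 match each. Cox6a1 and Uqcr11 have exonic lengths of 702 and 641 bases, and their day 7 changes were not called after either correction. Ndufb4 changed by -0.76 at day 7 (edgeR adjusted p = 0.00144), with corrected values of -0.34 and -0.23, not called. The change of Atp5g3 was called with the exonic correction only.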

How the data were processed

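RNA-seq of 9 sublingual gland libraries was analysed from the authors' deposited tables of raw counts per gene, one whole-number column per library. The submitters' processing notes list mm10 with STAR, featureCounts and DESeq2; no source used here states versions, settings, annotation, strandedness or the treatment of multiply mapped reads. Gene names, lengths and positions came from GENCODE M21, which matched 54495 of 54532 identifiers. The gene set and all lists were chosen with earlier results of these data known.

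Counts were fitted in edgeR 4.0.16 (filterByExpr, TMM, glmQLFit, 3 groups, 6 residual degrees of freedom, biological coefficient of variation 16.1%), under R 4.3.3. The scripts were tested on simulated data. Alternatives were DESeq2 1.42.0, other scalings, no filter, length and GC offsets, a replicate block and leaving out each library; 2 length settings were added after seeing the data. Replicate numbers gave no sign of pairing the samples, and shared animals or batches were not tested. Genes were named by a rule: all mitochondrial genes, complex II, the smallest p-values of each complex, calls against the main direction, tissue forms, catalytic cores and the extremes of level per length; the other genes were named after their values were seen, and 1 gene of the rule is not reported here. Shares of 50-base windows of the principal transcript found in another gene were computed from GENCODE transcripts.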

Additional observations from a re-analysis of the deposited data

Results flagged for a closer look

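The changes of 15 nuclear respiratory chain genes at day 7 and at day 14 differed, by edgeR's test of day 14 against day 7 at an adjusted p under 0.05. Among genes counted in complex I by symbol, the log2 differences were 0.63 for Ndufa5, 0.57 for Ndufa2 and 0.55 for Ndufs6. They were 0.49 for Ndufs5 and Ndufb3, 0.47 for Ndufb8, 0.43 for Ndufa4 and 0.34 for Ndufs3. In complex IV they were 0.44 for Cox6a1, 0.38 for Cox8a and 0.36 for Cox5a. In complex V they were 0.37 for Atp5l, 0.36 for Atp5g1, and 0.34 for Atp5g3 and Atp5d. All were positive, so day 14 lay above day 7. The number of genes called fell to 1 when day 7 replicate 1 was left out, and was 4 with the exonic and 3 with the principal-transcript correction.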

How the results depend on the processing

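At day 7 counts of called genes moved most with length correction, and at day 14 also with the tool, the filter and single libraries. For day 7, the 70 nuclear genes called lower became 23 with exonic length and GC offsets, 23 with those offsets and a replicate block, 21 with exonic length alone and 13 with principal-transcript length and GC, and the nuclear genes called higher went from 0 to 1 in each. The last 2 settings were chosen after seeing the data. Mitochondrial genes called lower went from 7 to 0, 0, 0 and 1 in that order, and those called higher from 1 to 2, 2 and 5 in the first 3. For day 14 against control, the 13 nuclear genes called lower became 6, 3, 4 and 3 in the same order, 2 with the replicate block alone, 38 with no filter and 42 with DESeq2; mitochondrial genes called lower went from 0 to 2 with no filter and 4 with DESeq2. For day 14 against day 7, the 15 nuclear genes called higher became 4, 3, 3 and 3, and 1 was called lower with each offset fit lacking the block. Mitochondrial genes called lower there went from 0 to 1, 2, 2 and 1, and to 1 with no filter, with DESeq2 and with only the 6 libraries compared. The day 14 change in the log2 ratio of the genomes was 0.13 without the most abundant gene of each.

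Leaving out one library gave 63 to 73 nuclear and 3 to 8 mitochondrial genes lower at day 7, 0 to 59 and 0 to 4 at day 14, with 0 to 1 mitochondrial higher at day 14, and 1 to 23 nuclear higher and 0 to 1 mitochondrial lower for day 14 against day 7. Deviations of same-numbered libraries from their group means correlated at -0.112 to 0.037, and those of differently numbered libraries at -0.090 to 0.158. The numbers thus gave no sign of pairing, but whether samples shared an animal or a batch cannot be told from this. With the replicate block 71 nuclear genes were lower at day 7.

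Of the 70 nuclear genes called at day 7, 8 turned sign with length and GC, 11 with exonic length alone and 18 with the principal transcript. Of these, 0, 0 and 1 were then called. Of the 8 mitochondrial genes called, 2, 6 and 1 turned, and 0, 1 and 0 of them were then called in the new direction. Among the genes named by the rule, directions were compared where either fit made a call. At day 7 the sign of these turned with exonic length alone for mt-Nd1 0.13, mt-Nd2 0.21, mt-Nd4 0.02, mt-Nd6 0.39, mt-Cytb 0.35, mt-Co2 0.25, mt-Co3 0.12, Sdhd 0.14, Uqcr10 0.01, Uqcrb 0.02, Uqcrfs1 0.31, Cox8a 0.02 and Atp5g2 0.06. With length and GC it turned for mt-Nd6 0.15, mt-Co2 0.06, Sdhd 0.12, Uqcr10 0.03, Uqcrfs1 0.28, Cox6a1 0.01, Cox8a 0.06 and Atp5g2 0.13, and with the block added mt-Nd6 was 0.16, mt-Co2 0.05 and Uqcrfs1 0.27, the others alike. With the principal transcript it turned for mt-Nd6 0.04, Uqcr10 0.06, Cox4i1 0.11, Cox6a1 0.01, Cox8a 0.06, Atp5g2 0.26, Atp5g3 0.00 and Atp5l 0.05. For day 14 against day 7, mt-Nd6 was -0.34 with exonic length alone and -0.35 with the block and offsets. The cause was not tested.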
